A study of Mus musculus with 6 samples.

Results

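The genes described here were the 53 members of 7 families of developmental transcription factors (the Pax, Lhx, Dlx, Tbx, Gata and Irx genes and Six2 to Six6) in RNA-seq of the adult mouse brain with and without the Bahd1 gene. They were taken by name: the genes whose symbol was 1 of these family names followed by a number, among the 53801 genes counted. The families held 9 Pax, 8 Lhx, 6 Dlx, 13 Tbx, 6 Gata and 6 Irx genes and the 5 genes Six2 to Six6. Of the 53 genes, 48 had at least 10 counts over the 6 libraries and were tested, among 23975 genes tested in all.

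The study compared Bahd1-KO mice (genotype Bahd1-/-, C57BL/6 strain, about 70 weeks old) with Bahd1-WT mice (Bahd1+/+, same strain and age), with 3 mice of each genotype. The knockout mice were offspring of heterozygous parents, and since the study describes death around birth among knockouts, the adults analysed were animals that had survived it. RNA came from 1 hemisphere of a sagittally cut brain per mouse, so each library mixed cortex, striatum, thalamus, cerebellum and the other regions in the proportions of that hemisphere. In such bulk tissue, fewer cells of a type and less RNA per cell cannot be told apart.

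These factors bind DNA and set the identity of cells in the embryo, each in its own tissues: Pax and Irx genes act in the neural tube, Dlx and Lhx genes in forebrain neurons, Six2 to Six6 in the eye and forebrain, the Gata genes in blood, heart and brainstem, and the T-box (Tbx) genes in mesoderm, limbs and heart. In cells that do not use them, genes of this kind are commonly held silent by the Polycomb repressive complexes, which mark their chromatin with methylated lysine on histone H3 and ubiquitin on histone H2A. BAHD1 carries a BAH domain, which the study, citing earlier work, describes as a reader of this methylated lysine. No chromatin mark was measured in these libraries, so Polycomb control is background here and not a property that the counts could check.

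Promoters of such genes are commonly rich in CG dinucleotides. RefSeq promoters (GRCm38.p6) of 300 bases, from 250 before to 50 after the start, were at hand for 37 of the 53 genes, and 27 of the 37 (73%) held at least 10 CG dinucleotides, a motif that reads the same on both strands, beside 43.9% of 27025 promoters over all genes. The median was 17 CG in these promoters and 7 over all genes. The 250 bases upstream of the start of 4 genes are printed as examples, 5′ to 3′, with each CG in capitals, so that CG-rich and CG-poor promoters can be compared, and no comparison of genotypes rests on them. Gata2 and Tbx6 had higher values in Bahd1-KO at an unadjusted p under 0.05, and Dlx2 and Tbx21 followed the order of the olfactory bulb markers described below. They lie at chr6:88193641-88193890 (Gata2, plus strand), chr7:126781233-126781482 (Tbx6, plus strand), chr2:71546755-71547004 (Dlx2, minus strand) and chr11:97115332-97115581 (Tbx21, minus strand), and they were taken among windows that overlap no annotated exon. The windows of Gata2, Tbx6, Dlx2 and Tbx21 held 22, 6, 24 and 16 CG.
Gata2: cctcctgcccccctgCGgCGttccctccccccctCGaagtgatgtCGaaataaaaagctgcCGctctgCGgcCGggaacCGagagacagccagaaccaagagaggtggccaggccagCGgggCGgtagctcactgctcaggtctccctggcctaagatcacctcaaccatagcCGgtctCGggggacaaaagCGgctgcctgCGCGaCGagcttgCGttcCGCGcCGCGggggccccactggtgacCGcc
Tbx6: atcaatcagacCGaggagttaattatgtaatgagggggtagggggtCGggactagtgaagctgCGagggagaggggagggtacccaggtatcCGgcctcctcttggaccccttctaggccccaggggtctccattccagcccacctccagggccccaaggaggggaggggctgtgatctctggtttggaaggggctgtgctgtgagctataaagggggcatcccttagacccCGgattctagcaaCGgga
Dlx2: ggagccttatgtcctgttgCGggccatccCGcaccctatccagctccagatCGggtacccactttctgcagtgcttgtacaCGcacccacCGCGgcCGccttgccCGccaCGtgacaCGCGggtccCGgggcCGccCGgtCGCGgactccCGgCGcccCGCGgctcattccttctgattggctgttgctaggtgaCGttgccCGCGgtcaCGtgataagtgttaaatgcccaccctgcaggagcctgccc
Tbx21: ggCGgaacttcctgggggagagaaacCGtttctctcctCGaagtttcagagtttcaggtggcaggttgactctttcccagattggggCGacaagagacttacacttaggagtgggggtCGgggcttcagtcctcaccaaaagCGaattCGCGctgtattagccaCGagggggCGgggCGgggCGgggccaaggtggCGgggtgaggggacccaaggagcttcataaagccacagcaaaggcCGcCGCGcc

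The libraries held 42297150 to 93557948 counts on genes. Levels are given as CPM (counts per 1000000 counts of the library, with library sizes scaled by edgeR's trimmed mean of M-values), and 3 counts, the limit taken for a count of 0, correspond to 0.0315 to 0.0690 CPM depending on the library. Bahd1, the deleted gene, was counted 1383, 844 and 1099 times in Bahd1-WT replicates 1, 2 and 3 and 0, 14 and 1 times in Bahd1-KO, and it fell by 7.67 on the log2 scale (edgeR quasi-likelihood test, adjusted p = 0.0135). Bahd1-KO replicate 2 stood apart: its counts differed from those of Bahd1-KO replicates 1 and 3 by a chi-square per degree of freedom of 358 and 233, against 86.1 between those replicates and 49.4 to 57.4 among the Bahd1-WT libraries. It held the highest level of the 6 libraries for 21 of the 48 genes tested (43.8%), and for 33.3% of all genes. Gene positions are from the GENCODE M21 annotation of GRCm38, and every value below is listed in the order of replicates 1, 2 and 3.

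In the adult hemisphere, 28 of the 53 genes averaged at least 1 CPM over the 6 libraries, 7 of them at least 10 CPM, and 25 averaged under 1 CPM. Compared per length, as FPKM, which is the CPM divided by the exon length in kilobases, Lhx2 (5.2 FPKM) and Dlx1 (5.0) had the highest means over the 6 libraries, followed by Dlx6 (3.89), Lhx1 (2.76), Pax6 (2.41), Lhx6 (2.32), Six3 (2.14) and Irx2 (2.02). With the longest transcript as the length, Lhx2 and Dlx1 kept the first and second places and Pax6 moved from the fifth to the third. Of these, Lhx2, Dlx1, Dlx6, Pax6, Lhx6 and Six3 are known for roles in the forebrain. At the other end, Gata4 and Gata5 (heart and gut), Pax4 (pancreas), Pax9 (skeleton and teeth) and Tbx10 had at most 4 counts in any library and were not tested.

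**Figure D1:**
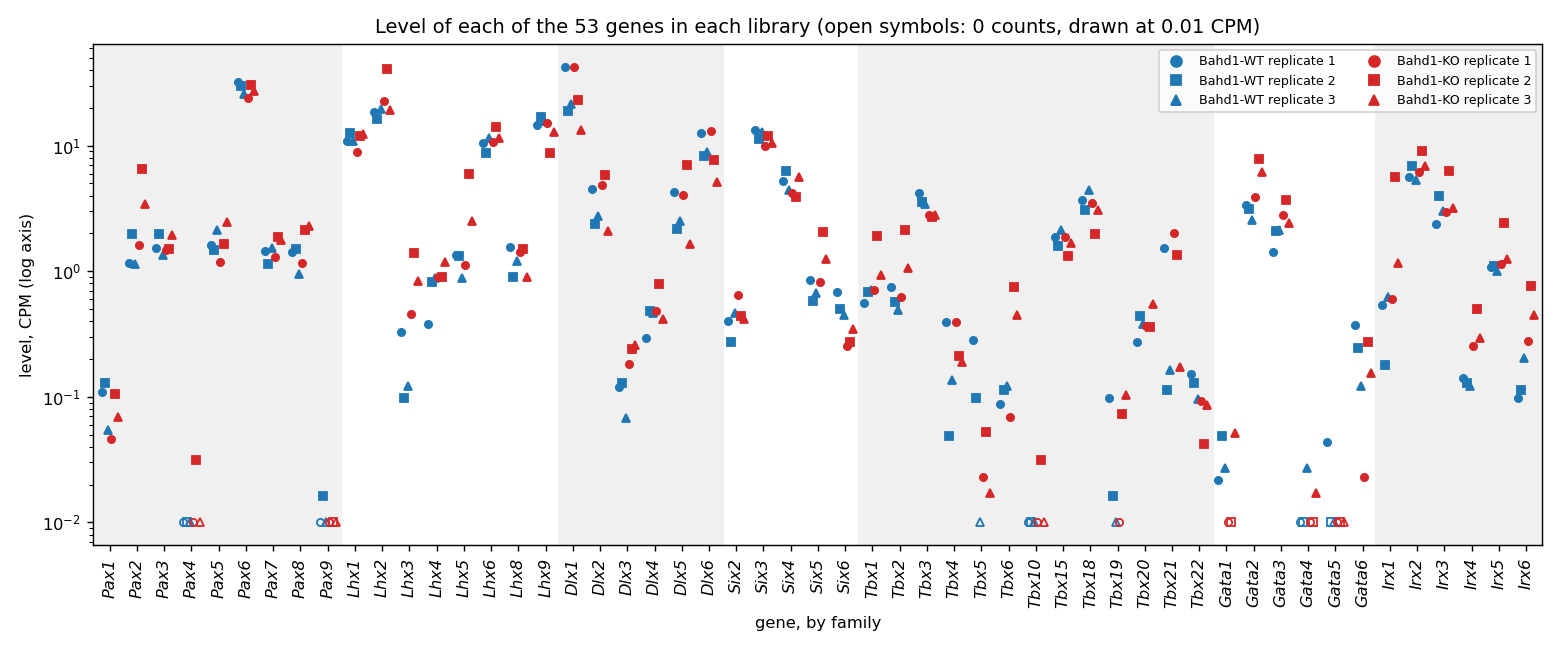
Level of each of the 53 genes in each library, in CPM on a log axis, by family, with Bahd1-WT in blue and Bahd1-KO in red, and 1 symbol shape per replicate number. Open symbols at the bottom stand for 0 counts. Within the Pax family, Pax4 had 0 counts in 5 libraries and Pax6 was at 23.9 CPM or more in all 6, and for most genes the blue and red symbols overlap.

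The comparison of genotypes asked whether these genes differed in level when BAHD1 was absent. None of the 48 genes was called as differentially expressed (at least 2-fold different with an adjusted p under 0.05, edgeR quasi-likelihood test with Benjamini-Hochberg adjustment), and 0.00834% of all genes were (2 genes, 1 of them Bahd1). At an unadjusted p under 0.05, 13 of the 48 genes (27.1%) were higher in Bahd1-KO, beside 19.9% of all genes tested, and 1 (2.08%) was lower, beside 12% of all genes. The 13 were Dlx3, Gata2, Gata3, Irx1, Irx4, Irx6, Lhx3, Lhx5, Pax2, Six5, Tbx1, Tbx2 and Tbx6, and the gene with lower values was Six6. Of these 13, Gata2, Irx1, Irx4, Irx6, Lhx3, Pax2 and Tbx6, which are 7 of the 48 (14.6%), had an adjusted p under 0.1, beside 14.7% of all genes, as had Six6 among the lower ones (2.08%, beside 4.77%). The count of 8 at this threshold became 16 without Bahd1-KO replicate 1 (all higher, so without Six6), 1 without Bahd1-KO replicate 2 and 0 without any other library. DESeq2, the tool of the study, called 6 genes with its normal prior (Irx4, Irx6, Lhx3, Lhx5, Pax2 and Tbx6; 9.61% of all genes were called higher) and 7 without the prior (Gata2 besides; 10.5% of all genes).

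The median log2 fold change of the 48 genes was 0.36, against -0.06 over all genes, and 32 of the 48 (66.7%) had a higher value in Bahd1-KO, against 46.6% of all genes. In 9 genes (18.8%; 20.6% of all genes) every Bahd1-KO library lay above every Bahd1-WT library: Dlx3, Gata2, Gata3, Irx4, Irx5, Irx6, Lhx3, Lhx4 and Tbx1. In 3 genes (6.25%; 19.3% of all genes) every Bahd1-KO library lay below: Six6, Tbx22 and Tbx3. With 3 libraries against 3, an exact permutation test of a single gene cannot go below a two-sided p of 0.1. Without Bahd1-KO replicate 2, the genes higher at an unadjusted p under 0.05 were 4 (Gata2, Irx4, Irx6 and Lhx3; 8.33%, beside 15.5% of all genes) and Six6 was the 1 gene lower (2.08%, beside 9.35%). Without Bahd1-KO replicate 1, 11 of the 48 genes passed the threshold for differential expression (22.9%, beside 14.6% of all genes).

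**Figure D2:**
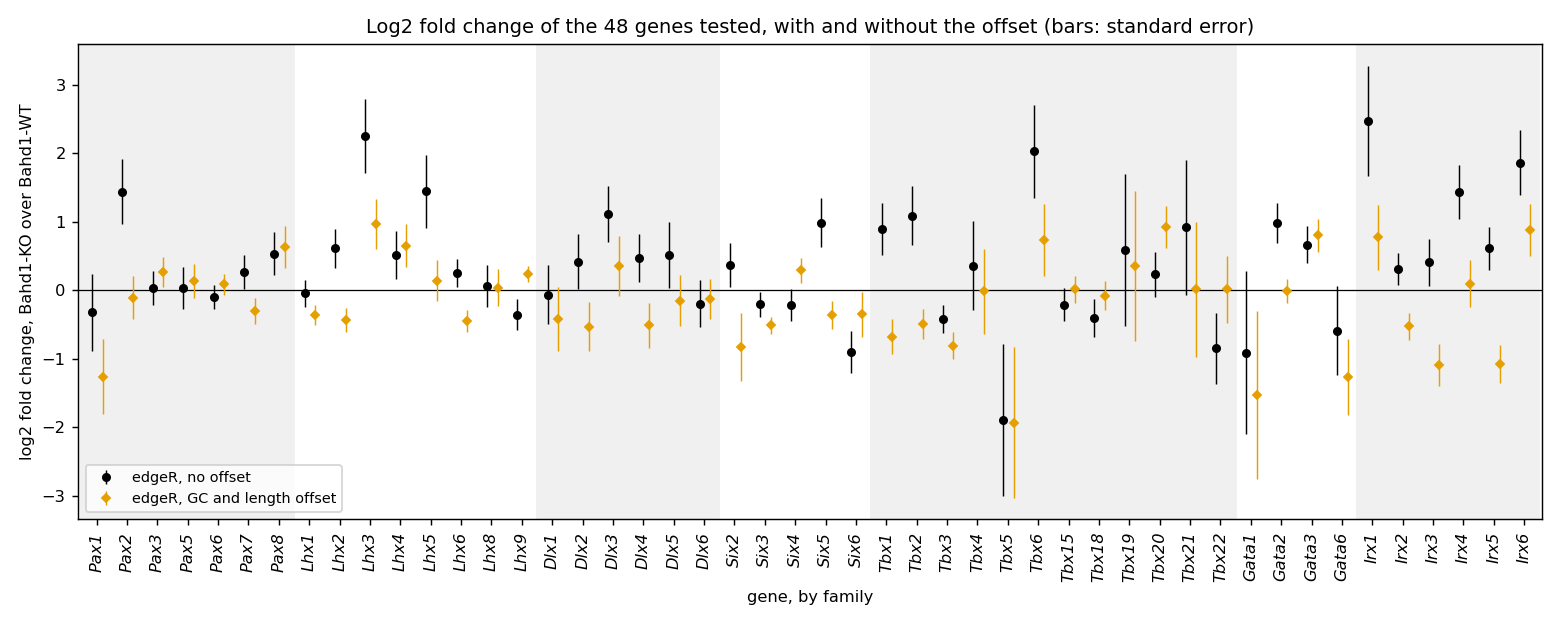
Log2 fold change (Bahd1-KO over Bahd1-WT) of the 48 genes tested, by family, with its standard error as a bar. Black circles are from edgeR without an offset and orange diamonds from the fit with a GC content and length offset per library. The black symbols of all 6 Irx genes lie above 0, and the orange symbols of 3 of them (Irx2, Irx3 and Irx5) lie below 0.

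The fold changes went with base composition. Over the 48 genes, Spearman's rho between the GC content of the longest annotated transcript and the log2 fold change was 0.691, and over 23940 genes with an annotation it was 0.745. These are descriptions across genes that share the same 6 libraries. The 53 genes were GC-rich, with a median of 55.2% over those tested against 48.7% over all genes. All 16 tested genes with a GC content of at least 58% had higher values in Bahd1-KO. Their median log2 fold change was 0.98, where that of all genes of such GC content was 1.46. The 21 genes between 50% and 58% had a median of 0.24 (all genes in that range 0.46), and the 11 genes under 50% had a median of -0.21 (all genes -0.36).

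When an offset for GC content and length was fitted for each library, the median of the group changed sign. The median log2 fold change of the 48 genes was then -0.10, against 0.09 over all genes, and 21 of the 48 (43.8%) were higher in Bahd1-KO, against 60% of all genes. At an unadjusted p under 0.05, 4 genes were higher (Gata3, Irx6, Lhx3 and Tbx20; 8.33%, beside 17.5% of all genes) and 12 were lower (Gata6, Irx2, Irx3, Irx5, Lhx1, Lhx2, Lhx6, Pax1, Six3, Tbx1, Tbx2 and Tbx3; 25.0%, beside 5.89% of all genes). Irx3, Irx5, Six3 and Tbx3 had an adjusted p under 0.1 in that fit, beside 1.32% of all genes in this direction, and none of the 48 had one in the other direction (0 genes, beside 6.26% of all genes; 4 at an unadjusted p under 0.05). With the offset, the median was 0.027 without Bahd1-WT replicate 1, so the change of sign did not hold there, and below 0 without any other library. At an unadjusted p under 0.05 the genes higher then numbered 8 without Bahd1-KO replicate 1, 1 without Bahd1-KO replicate 2 or 3, 2 without Bahd1-WT replicate 1 or 2 and 4 without Bahd1-WT replicate 3, and the genes lower numbered 5 without Bahd1-KO replicate 3 or Bahd1-WT replicate 2, 7 without Bahd1-KO replicate 2 and 10 or 11 without any other. The count at an adjusted p under 0.1 was 15 without Bahd1-KO replicate 1 and 0 without any other library or with the replicate numbers as a block. Spearman's rho between GC content and fold change was -0.306 over the 48 genes with the offset, and 0.0592 over all genes. With the offset, the fold changes of the 48 genes thus still went with GC content, in the opposite direction. The offset was fitted on 13251 expressed genes. Irx6, Lhx3 and Tbx20 among the higher genes and Gata6, Irx5, Pax1, Tbx1 and Tbx2 among the lower, at mean levels of 0.086 to 1.34 CPM, were not among those fitted. Their offsets therefore came from other genes.

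**Figure D3:**
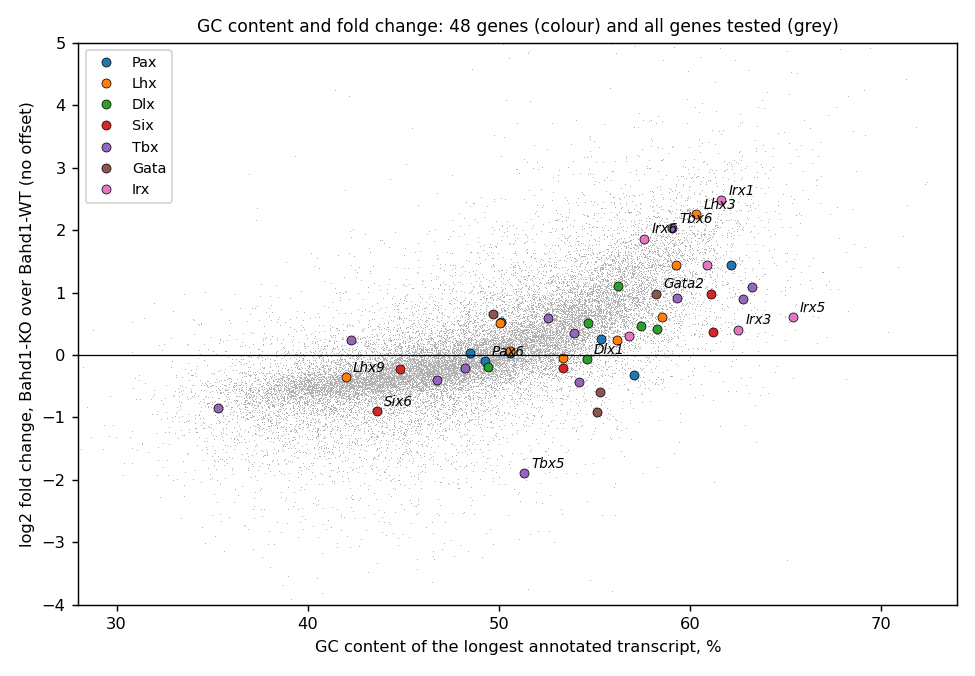
Log2 fold change without an offset (Bahd1-KO over Bahd1-WT) against the GC content of the longest annotated transcript in percent, for the 48 genes (coloured by family) and for all genes tested (grey; genes beyond the axes are not drawn). The coloured points follow the rising grey cloud, with Irx3 and Irx5 below it at their GC content and Tbx5 the lowest point.

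The Dlx genes encode homeodomain factors of the ventral forebrain, where Dlx1, Dlx2, Dlx5 and Dlx6 are needed to make inhibitory neurons. The median log2 fold change of the 6 Dlx genes was 0.44, and -0.29 with the offset. Dlx1 was at 42, 19 and 21.6 CPM in Bahd1-WT and 42.5, 23.3 and 13.4 CPM in Bahd1-KO. Replicate 1 of both genotypes was the highest and the genotypes overlapped (log2 fold change -0.07, unadjusted p = 0.884). Dlx2, its neighbour 9.43 kb away, was at 4.49, 2.36 and 2.77 CPM in Bahd1-WT and 4.87, 5.87 and 2.11 CPM in Bahd1-KO (log2 fold change 0.42, unadjusted p = 0.324). Dlx5 was at 4.25, 2.17 and 2.52 CPM in Bahd1-WT and 4.05, 7.02 and 1.66 CPM in Bahd1-KO, where replicate 2 was the highest of all (log2 fold change 0.51, unadjusted p = 0.318). Dlx6, 9.24 kb from Dlx5, was at 12.5, 8.21 and 8.86 CPM in Bahd1-WT and 13.1, 7.7 and 5.1 CPM in Bahd1-KO (log2 fold change -0.20, unadjusted p = 0.581). None of these 4 genes separated the genotypes. Dlx3, a gene of placenta, skin and teeth, was low, at 0.12, 0.13 and 0.0682 CPM in Bahd1-WT (5 to 11 counts) and 0.184, 0.242 and 0.259 CPM in Bahd1-KO (8 to 23 counts). The Bahd1-KO libraries were the 3 highest (log2 fold change 1.11, unadjusted p = 0.0259; log2 fold change 1.07 with an unadjusted p of 0.067 without Bahd1-KO replicate 2 and 0.35 with the offset).

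In 7 of the 48 genes (14.6%), Dlx1, Dlx2, Dlx5, Dlx6, Tbx21, Tbx4 and Lhx8, replicate 1 of both genotypes lay above Bahd1-WT replicates 2 and 3 and Bahd1-KO replicate 3, an order found in 5.15% of all genes. The order leaves out Bahd1-KO replicate 2, where Dlx2 and Dlx5 had their highest level of the 6 libraries and Dlx1 and Dlx6 lay below their means. Tbx21, which encodes T-bet, a factor of T lymphocytes and also of the projection neurons of the olfactory bulb, had, of these 7 genes, the widest spread relative to its mean: 1.53, 0.113 and 0.164 CPM in Bahd1-WT and 2.0, 1.35 and 0.173 CPM in Bahd1-KO. Bahd1-WT replicate 1 was 11-fold above the mean of Bahd1-WT replicates 2 and 3, and Bahd1-KO replicate 1 was 11.6-fold above Bahd1-KO replicate 3. The genotypes overlapped through Bahd1-WT replicate 1 and Bahd1-KO replicate 3, and the other Bahd1-WT libraries lay below all Bahd1-KO libraries (log2 fold change 0.91, unadjusted p = 0.382). Tbx21, the olfactory bulb markers and this order were singled out after the values had been seen.

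All 5 olfactory bulb markers listed (Eomes, Doc2g, Cdhr1, Sp8 and Gng4) had the same order. Eomes, a T-box factor of bulb projection neurons in the adult, was at 21.1, 7.71 and 7.49 CPM in Bahd1-WT and 23.6, 11.7 and 6.11 CPM in Bahd1-KO. The sum of the 5 bulb markers was 252, 98.9 and 103 CPM in Bahd1-WT and 252, 127 and 74.5 CPM in Bahd1-KO. Of the 5 markers of the olfactory epithelium, Omp, Cnga2 and Stoml3 had this order and Gnal and Adcy3 did not. Omp, of mature olfactory sensory neurons, was at 3.98, 0.178 and 0.0682 CPM in Bahd1-WT and 8.71, 3.55 and 0.138 CPM in Bahd1-KO. The T lymphocyte markers (Cd3e, Cd3g, Cd4, Cd8a and Trac) summed to 8.37 to 10.1 CPM in Bahd1-WT and 8.53 to 10.6 CPM in Bahd1-KO. Cd3e was at 0.0545 to 0.208 CPM in all libraries. The part of the olfactory bulb or epithelium in the Dlx and Tbx21 values was not tested.

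**Figure D4:**
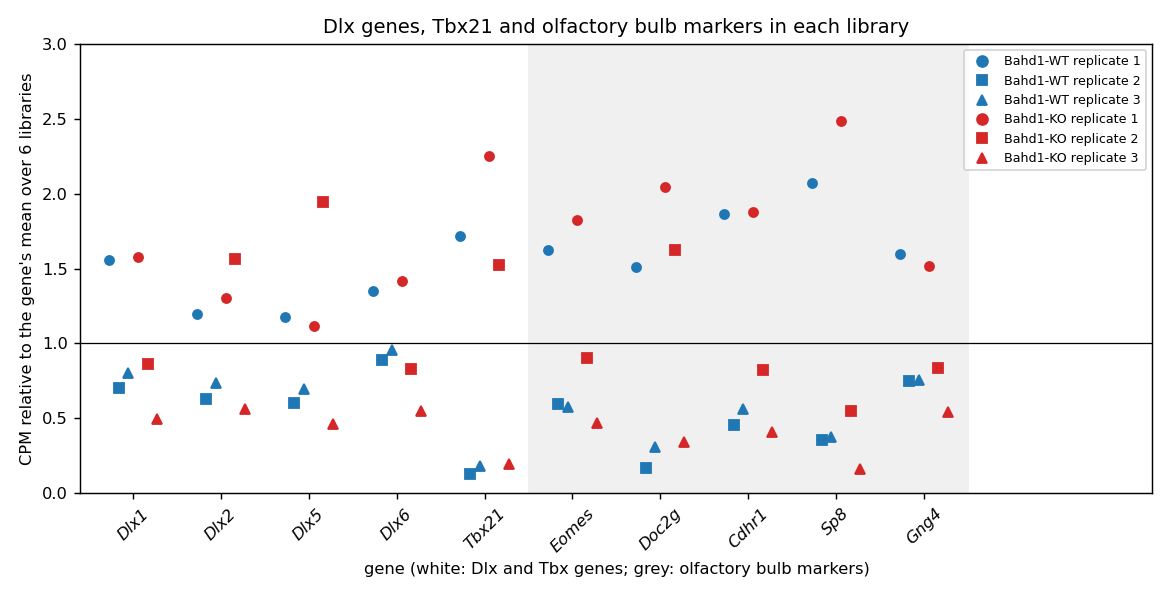
Level of 4 Dlx genes and Tbx21 (white) and of 5 olfactory bulb markers (grey) in each library, as CPM divided by the gene's mean over the 6 libraries, with Bahd1-WT in blue, Bahd1-KO in red and a symbol shape per replicate number. The circles (replicate 1 of each genotype) lie above the mean for all 10 genes, and both triangles (replicate 3) lie below it.

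Lhx genes encode LIM-homeodomain factors. Lhx2, which patterns the cortex and eye, was at 18.4, 16.3 and 19.4 CPM in Bahd1-WT and 22.6, 41.1 and 19.2 CPM in Bahd1-KO. Only Bahd1-KO replicate 2 stood far above the Bahd1-WT range (log2 fold change 0.61, unadjusted p = 0.0604; log2 fold change 0.20 without that library and -0.44 with the offset). Lhx6, which marks interneurons born in the medial ganglionic eminence, was at 10.4, 8.75 and 11.5 CPM in Bahd1-WT and 10.8, 14 and 11.5 CPM in Bahd1-KO (log2 fold change 0.24, unadjusted p = 0.259). Lhx1, a gene of cerebellar Purkinje cells and other neurons, was at 10.9, 12.5 and 10.8 CPM in Bahd1-WT and 8.87, 11.9 and 12.3 CPM in Bahd1-KO (log2 fold change -0.05, unadjusted p = 0.818). For both the genotypes overlapped. Lhx9, expressed in the thalamus, was at 14.5, 16.8 and 15.7 CPM in Bahd1-WT and 15.1, 8.8 and 12.9 CPM in Bahd1-KO (log2 fold change -0.36, unadjusted p = 0.153), and its log2 fold change had the opposite sign with the offset (0.24). Lhx8, needed for cholinergic neurons of the forebrain, was at 1.56, 0.907 and 1.2 CPM in Bahd1-WT and 1.43, 1.5 and 0.898 CPM in Bahd1-KO (log2 fold change 0.06, unadjusted p = 0.856). Lhx5, which acts in hippocampus and Purkinje cells, was at 1.36, 1.31 and 0.886 CPM in Bahd1-WT and 1.13, 5.93 and 2.5 CPM in Bahd1-KO. Bahd1-KO replicate 1 lay within the Bahd1-WT range and the other Bahd1-KO libraries above it (log2 fold change 1.44, unadjusted p = 0.0237; 0.63 without Bahd1-KO replicate 2 and 0.14 with the offset).

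Lhx3 (chr2:26200212-26208289, minus strand), which is needed for the anterior pituitary and for motor neurons, had the largest log2 fold change among the genes whose genotypes did not overlap. It was at 0.328, 0.0972 and 0.123 CPM in Bahd1-WT (from 30, 6 and 9 counts) and 0.46, 1.39 and 0.829 CPM in Bahd1-KO (from 20, 132 and 48). All Bahd1-KO libraries lay above all Bahd1-WT libraries (log2 fold change 2.26, SE 0.54, unadjusted p = 0.0026, adjusted p = 0.0634). Its log2 fold change was 1.78 without Bahd1-KO replicate 2 and 0.96 with the offset. Summed levels of 8 pituitary hormone genes and factors were 19.6, 0.615 and 0.205 CPM in Bahd1-WT and 0.184, 3.95 and 42.9 CPM in Bahd1-KO. Of these 8, 1 (Lhb) was higher in Bahd1-KO at an unadjusted p under 0.05, beside 19.9% of all genes. Bahd1-WT replicate 1, with the highest pituitary sum of the Bahd1-WT libraries, also had their highest Lhx3 value. Bahd1-KO replicate 1, with the lowest pituitary sum, had the lowest Lhx3 value of the Bahd1-KO libraries, from 20 counts, and it lay above the 3 Bahd1-WT libraries. The part of pituitary RNA in the Lhx3 values was not tested. Lhx4, a close relative of Lhx3 that also acts in the pituitary and motor neurons, was at 0.893 to 1.19 CPM in Bahd1-KO and 0.382 to 0.886 CPM in Bahd1-WT (log2 fold change 0.52, unadjusted p = 0.174).

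Pax genes encode paired-domain factors. Pax6, which acts in the eye, the cortex and cerebellar granule cells, was at 31.9, 30.0 and 25.9 CPM in Bahd1-WT and 23.9, 30.5 and 27.3 CPM in Bahd1-KO, with overlapping genotypes (log2 fold change -0.10, unadjusted p = 0.572). Its mean was 29.2 ± 3.06 CPM in Bahd1-WT and 27.2 ± 3.32 CPM in Bahd1-KO (SD, n = 3). Pax2, Pax5 and Pax8 act together at the boundary of midbrain and hindbrain in the embryo. Pax2 was at 1.16, 1.99 and 1.13 CPM in Bahd1-WT and 1.61, 6.48 and 3.42 CPM in Bahd1-KO, where replicate 1 lay within the Bahd1-WT range (log2 fold change 1.44, SE 0.48, unadjusted p = 0.0152, adjusted p = 0.0903; 0.83 with an unadjusted p of 0.0555 without Bahd1-KO replicate 2 and -0.11 with the offset). Pax5 was at 1.61, 1.47 and 2.11 CPM in Bahd1-WT and 1.2, 1.64 and 2.45 CPM in Bahd1-KO (log2 fold change 0.03, unadjusted p = 0.929). Pax8 was at 1.42, 1.51 and 0.954 CPM in Bahd1-WT and 1.17, 2.12 and 2.3 CPM in Bahd1-KO (log2 fold change 0.53, unadjusted p = 0.128). Of these 3 relatives, the unadjusted p was under 0.05 for Pax2 only, and differences between them were not tested. Pax3 and Pax7 act in the dorsal neural tube and in muscle precursors. Pax3 was at 1.53, 1.98 and 1.34 CPM in Bahd1-WT and 1.47, 1.51 and 1.95 CPM in Bahd1-KO (log2 fold change 0.03, unadjusted p = 0.91). Pax7 was at 1.45, 1.15 and 1.53 CPM in Bahd1-WT and 1.31, 1.86 and 1.76 CPM in Bahd1-KO (log2 fold change 0.26, unadjusted p = 0.323), and for both the genotypes overlapped.

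Six2 to Six6 encode homeodomain factors of eye, forebrain, muscle and kidney. Six6 (chr12:72939892-72944899, plus strand), an eye and hypothalamus gene, was the 1 gene with lower values in Bahd1-KO at an unadjusted p under 0.05: it was at 0.678, 0.502 and 0.45 CPM in Bahd1-WT (from 62, 31 and 33 counts) and 0.253, 0.273 and 0.345 CPM in Bahd1-KO (from 11, 26 and 20). The groups did not overlap (log2 fold change -0.90, SE 0.31, unadjusted p = 0.0168, adjusted p = 0.0942), and the log2 fold change was -0.85 without Bahd1-KO replicate 2 and -0.36 with the offset. Its GC content of 43.6% was among the lower ones of the 48 genes. Six4, 155 kb from Six6 on chromosome 12, was at 5.23, 6.3 and 4.46 CPM in Bahd1-WT and 4.23, 3.92 and 5.58 CPM in Bahd1-KO (log2 fold change -0.22, unadjusted p = 0.377; 0.29 with the offset). Both genes had log2 fold changes below 0 without the offset, and Six4 above 0 with it. Six3, which represses caudal fate in the forebrain, was at 13.4, 11.4 and 12.7 CPM in Bahd1-WT and 9.97, 12 and 10.4 CPM in Bahd1-KO (log2 fold change -0.21, unadjusted p = 0.284). With the offset its log2 fold change was -0.52 (adjusted p = 0.0815). Six5, next to the gene mutated in myotonic dystrophy, was at 0.852, 0.583 and 0.668 CPM in Bahd1-WT and 0.827, 2.06 and 1.24 CPM in Bahd1-KO (log2 fold change 0.98, unadjusted p = 0.0231; 0.57 with an unadjusted p of 0.103 without Bahd1-KO replicate 2 and -0.36 with the offset). Six3, Six4 and Six5 overlapped between the genotypes.

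The Irx (Iroquois) genes, which partition the neural tube and the heart, had the highest GC content of the 7 families (median 61.3%) and the highest median log2 fold change (1.02; -0.22 with the offset). Irx1 was at 0.535, 0.178 and 0.627 CPM in Bahd1-WT and 0.598, 5.68 and 1.16 CPM in Bahd1-KO. Bahd1-KO replicate 2 was the highest by far, with 541 counts, and without it the log2 fold change was 0.97 in place of 2.47 (SE 0.80, edgeR adjusted p = 0.0868). Irx2 was at 5.63, 6.87 and 5.32 CPM in Bahd1-WT and 6.14, 9.05 and 6.84 CPM in Bahd1-KO (log2 fold change 0.31, unadjusted p = 0.211). Irx3 was at 2.37, 4.0 and 3.04 CPM in Bahd1-WT and 2.99, 6.27 and 3.16 CPM in Bahd1-KO (log2 fold change 0.41, unadjusted p = 0.266; -0.03 without Bahd1-KO replicate 2). In both, the genotypes overlapped. Irx4 was at 0.142, 0.13 and 0.123 CPM in Bahd1-WT and 0.253, 0.504 and 0.294 CPM in Bahd1-KO, without overlap (log2 fold change 1.43, SE 0.39, unadjusted p = 0.0054, adjusted p = 0.065). Irx5 was at 1.08, 1.1 and 1.01 CPM in Bahd1-WT and 1.15, 2.42 and 1.26 CPM in Bahd1-KO, without overlap (log2 fold change 0.61, unadjusted p = 0.0895; 0.18 with an unadjusted p of 0.493 without Bahd1-KO replicate 2). Irx6 (chr8:92674288-92680956, plus strand), 298 kb from Irx5, was at 0.0983, 0.113 and 0.205 CPM in Bahd1-WT and 0.276, 0.756 and 0.449 CPM in Bahd1-KO, without overlap (log2 fold change 1.86, SE 0.47, unadjusted p = 0.00352, adjusted p = 0.0634). The offset split these genes: the log2 fold change was 0.88 for Irx6 and 0.77 for Irx1, 0.10 for Irx4, -0.53 for Irx2, -1.09 for Irx3 and -1.08 for Irx5.

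Gata2 and Gata3, zinc finger factors that specify inhibitory and serotonergic neurons of the midbrain and hindbrain, were both higher in all Bahd1-KO libraries. Gata2 (chr6:88193891-88207032, plus strand) was at 3.4, 3.11 and 2.56 CPM in Bahd1-WT and 3.88, 7.88 and 6.11 CPM in Bahd1-KO (log2 fold change 0.98, SE 0.29, unadjusted p = 0.00821, adjusted p = 0.0707), with means of 3.02 ± 0.424 and 5.96 ± 2.0 CPM (SD, n = 3). Gata3 (chr2:9857078-9890034, minus strand) was at 1.43, 2.11 and 2.13 CPM in Bahd1-WT and 2.8, 3.7 and 2.44 CPM in Bahd1-KO (log2 fold change 0.66, SE 0.27, unadjusted p = 0.0354, adjusted p = 0.132), with means of 1.89 ± 0.395 and 2.98 ± 0.648 CPM (SD, n = 3). They differ in base composition, Gata2 at 58.2% GC and Gata3 at 49.7%, and with the offset the log2 fold change was -0.02 for Gata2 and 0.80 for Gata3 (unadjusted p = 0.0080, adjusted p = 0.101). Without Bahd1-KO replicate 2 it was 0.73 and 0.47. The 6 midbrain and monoamine markers (Th, Slc6a3, Ddc, Slc6a4, Tph2 and Chat) summed to 57.7 to 66.3 CPM in Bahd1-WT and 79.1 to 91.6 CPM in Bahd1-KO. Without the offset, 3 of the 6 were higher at an unadjusted p under 0.05, beside 19.9% of all genes. The part of such cells in the Gata2 and Gata3 values was not tested. Gata1, the red cell factor, had 0 to 3 counts in every library. The red cell markers, mostly globins, summed to 10.8 to 15.9 CPM in Bahd1-WT and 15.1 to 92.6 CPM in Bahd1-KO.

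Among the genes named Tbx, Tbx3, Tbx15 and Tbx18 had the highest counts. Tbx3 (chr5:119670669-119684724, plus strand), a gene of the hypothalamus, limb and heart, was at 4.19, 3.58 and 3.41 CPM in Bahd1-WT and 2.83, 2.71 and 2.78 CPM in Bahd1-KO. The Bahd1-KO libraries lay close together and below all Bahd1-WT libraries (log2 fold change -0.43, SE 0.21, unadjusted p = 0.070, adjusted p = 0.187). Its log2 fold change was -0.41 without Bahd1-KO replicate 2 and -0.81 with the offset (adjusted p = 0.0827), so its direction was the same in the 3 fits. The hypothalamic markers (Avp, Oxt, Pmch, Hcrt, Agrp, Sim1 and Nkx2-1) summed to 32.0 to 49.2 CPM in Bahd1-WT and 22.7 to 29.5 CPM in Bahd1-KO. Most of the sum was Pmch, at 42.2, 28.4 and 29.7 CPM in Bahd1-WT and 25.0, 16.1 and 19.1 CPM in Bahd1-KO. At an unadjusted p under 0.05, 5 of the 7 differed: Avp, Oxt and Hcrt were higher in Bahd1-KO, and Pmch and Sim1 lower. The median log2 fold change of the 7 was 1.72, so the sum and most single markers went in opposite directions. The part of hypothalamic tissue in the Tbx3 and Six6 values was not tested. Tbx18, a marker of pericytes and smooth muscle, was at 3.69, 3.09 and 4.47 CPM in Bahd1-WT and 3.52, 1.98 and 3.06 CPM in Bahd1-KO (log2 fold change -0.40, unadjusted p = 0.182). Tbx15, of mesenchyme, was at 1.89, 1.59 and 2.13 CPM in Bahd1-WT and 1.86, 1.32 and 1.68 CPM in Bahd1-KO (log2 fold change -0.21, unadjusted p = 0.405). The genotypes overlapped for both, while the 6 pericyte and smooth muscle markers summed to 67.1 to 83.6 CPM in Bahd1-WT and 92.5 to 151 CPM in Bahd1-KO. Of these 6, 3 were higher at an unadjusted p under 0.05 without the offset, beside 19.9% of all genes. Tbx1, a gene of the pharynx and heart, was at 0.557, 0.68 and 0.709 CPM in Bahd1-WT and 0.712, 1.92 and 0.933 CPM in Bahd1-KO. Bahd1-KO replicate 1 was the lowest Bahd1-KO library and just above the Bahd1-WT range (log2 fold change 0.90, unadjusted p = 0.0436; 0.35 with an unadjusted p of 0.275 without Bahd1-KO replicate 2 and -0.68 with the offset).

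The other 19 genes averaged under 1 CPM, and 14 of them were tested. Tbx2 (0.491 to 0.754 CPM in Bahd1-WT against 0.621 to 2.13 CPM in Bahd1-KO) and Tbx6, a somite gene (0.0874 to 0.123 and 0.069 to 0.746 CPM), were higher in Bahd1-KO at an unadjusted p under 0.05, with overlapping genotypes (log2 fold change 1.09, unadjusted p = 0.0346 for Tbx2; log2 fold change 2.03, unadjusted p = 0.0155 for Tbx6). Without Bahd1-KO replicate 2 the log2 fold change was 0.48 for Tbx2 (unadjusted p = 0.197) and 1.33 for Tbx6 (unadjusted p = 0.083). With the offset it was -0.50 for Tbx2 (unadjusted p = 0.046), the opposite sign, and 0.73 for Tbx6 (unadjusted p = 0.199). Bahd1-KO replicate 2 held 203 of the counts of Tbx2 and 71 of those of Tbx6, the highest count of the 6 libraries for each. Lhx4 and Tbx22 separated the genotypes at an unadjusted p above 0.05. The others, Dlx4, Gata1, Gata6, Pax1, Six2, Tbx4, Tbx5, Tbx19, Tbx20 and Tbx21, overlapped between the genotypes, with unadjusted p from 0.124 to 0.613. Among the 53 genes, 16 had a Bahd1-WT mean under 0.2 CPM, 10 of these 16 also had a Bahd1-KO mean under 0.2 CPM, and none reached a Bahd1-KO mean of 1 CPM. The highest Bahd1-KO mean among the 16 was 0.892 CPM (Lhx3).

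Some of these low genes had their highest counts in libraries that also held markers of tissue outside the brain. Tbx5, which acts in heart, limb and lung, was counted 26, 6 and 0 times in Bahd1-WT and 1, 5 and 1 times in Bahd1-KO, and Gata6 34, 15 and 9 times and 1, 26 and 9 times. All 8 lung and airway markers, among them Sftpc and Scgb1a1, were lower in Bahd1-KO at an unadjusted p under 0.05, beside 12% of all genes. Their sum was 119, 27.7 and 2.55 CPM in Bahd1-WT and 0.552, 1.46 and 1.00 CPM in Bahd1-KO. Bahd1-WT replicate 1 had the highest value of Tbx5, Gata6 and the lung markers, while Bahd1-KO replicate 2, with 26 counts of Gata6, had a lung sum of 1.46 CPM. Tbx19, the factor of Pomc-producing pituitary cells, was counted 9, 1 and 0 times in Bahd1-WT and 0, 7 and 6 times in Bahd1-KO, and Pomc was at 1.87, 0.356 and 0.177 CPM in Bahd1-WT and 0.069, 2.99 and 3.97 CPM in Bahd1-KO. The 3 libraries with more than 1 count of Tbx19 were those with the highest Pomc. The part of lung or pituitary RNA in the values of Tbx5, Gata6 and Tbx19 was not tested.

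Several of these genes have an annotated transcript on the opposite strand, and the libraries were made with a kit that marks strand. Of 12 such transcripts in the table, 9 were tested and 0 had an unadjusted p under 0.05 by edgeR, beside 19.9% of all genes in the higher and 12% in the lower direction. These values rest on the strand setting of the counting being right for the kit, which was not tested, while the neuron gene Snap25 was counted at 2944 to 4582 CPM. Dlx6os1, which overlaps Dlx6, was at 29.5, 17.1 and 23.5 CPM in Bahd1-WT and 33.8, 13.1 and 12.1 CPM in Bahd1-KO, with replicate 1 the highest in both genotypes as for Dlx6. Dlx1as was at 2.26, 2.09 and 2.62 CPM in Bahd1-WT and 3.24, 2.37 and 2.19 CPM in Bahd1-KO. Lhx1os was at 4.96, 4.47 and 5.55 CPM in Bahd1-WT and 6.3, 6.58 and 5.53 CPM in Bahd1-KO. The genotypes overlapped for these 3. Six3os1 was at 4.7, 3.69 and 4.75 CPM in Bahd1-WT and 2.96, 4.11 and 4.11 CPM in Bahd1-KO. Irx3os was at 0.186, 0.13 and 0.123 CPM in Bahd1-WT and 0.0919, 0.431 and 0.328 CPM in Bahd1-KO, and Pax6os1 at 0.437, 0.599 and 0.382 CPM in Bahd1-WT and 0.598, 0.315 and 0.345 CPM in Bahd1-KO. Tbx3os1 was at 0.983, 0.842 and 0.614 CPM in Bahd1-WT and 0.644, 0.557 and 1.0 CPM in Bahd1-KO. Tbx3os2 was at 0.0765, 0.0486 and 0.0818 CPM in Bahd1-WT and 0.138, 0.137 and 0.121 CPM in Bahd1-KO, where all Bahd1-KO libraries lay above all Bahd1-WT libraries at 3 to 13 counts per library. Tbx3 itself had lower values in Bahd1-KO.

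The genes of the Polycomb machinery itself were tested from a list of 38 (12 of PRC2, which methylates lysine 27 of histone H3, 24 of PRC1, which ubiquitinates histone H2A, and 2 demethylases that remove the PRC2 mark). None passed an adjusted p of 0.05 in edgeR, 16 were higher and 5 lower in Bahd1-KO at an unadjusted p under 0.05 (19.9% and 12% of all genes), and DESeq2 with its normal prior called 5, all higher, beside 9.61% of all genes called higher. The catalytic subunit of PRC2 in dividing cells, Ezh2, was at 8.67, 9.38 and 8.64 CPM in Bahd1-WT and 6.94, 4.56 and 5.39 CPM in Bahd1-KO (log2 fold change -0.66, unadjusted p = 0.0151). Its scaffold Suz12 was at 80.0, 88.5 and 80.5 CPM in Bahd1-WT and 71.3, 36.6 and 56.2 CPM in Bahd1-KO (log2 fold change -0.60, unadjusted p = 0.0308), and Eed, which binds the methylated mark, was at 19.1, 24.4 and 20.5 CPM in Bahd1-WT and 22.7, 14.4 and 13.1 CPM in Bahd1-KO (log2 fold change -0.35, unadjusted p = 0.183). Ezh2 and Suz12 did not overlap between the genotypes and Eed did. Ezh1, the counterpart of Ezh2 in resting cells such as neurons, was at 65.7, 63.2 and 66.7 CPM in Bahd1-WT and 64.3, 75.3 and 76.8 CPM in Bahd1-KO (log2 fold change 0.15, unadjusted p = 0.349). Of the PRC1 ubiquitin ligases, Ring1 was at 6.75, 5.59 and 5.0 CPM in Bahd1-WT and 8.55, 23.5 and 14.6 CPM in Bahd1-KO (log2 fold change 1.43, unadjusted p = 0.00283) and Rnf2 at 57.6, 66.1 and 56.2 CPM in Bahd1-WT and 55.1, 29.7 and 41.7 CPM in Bahd1-KO (log2 fold change -0.51, unadjusted p = 0.0539). Ring1 has 56.9% GC and Rnf2 39.5%.

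With the offset, 16 of the 38 were higher and 0 lower at an unadjusted p under 0.05, beside 17.5% and 5.89% of all genes, and the log2 fold change was -0.23 for Ezh2, -0.02 for Suz12, 0.52 for Ring1 and 0.15 for Rnf2. Without the offset, the highest log2 fold changes of the list besides that of Ring1 were those of Phc2 (1.77), Phf1 (1.61) and Epop (1.31). The lowest besides those of Ezh2 and Suz12 were those of Mtf2 (-0.80) and Kdm6a (-0.66). Without Bahd1-KO replicate 2 the log2 fold change was 1.16 for Phc2, 1.02 for Phf1, 0.83 for Epop, 1.01 for Ring1, -0.39 for Suz12, -0.32 for Rnf2, -0.54 for Ezh2, -0.63 for Mtf2 and -0.50 for Kdm6a, each of the same sign and nearer 0. With the offset, Phc2, Phf1, Epop, Mtf2 and Kdm6a were at 0.49, 0.48, -0.44, -0.07 and -0.07. The median log2 fold change of the 38 was 0.36, and 0.18 with the offset, beside -0.06 and 0.09 over all genes. Neuroblast and dividing-cell markers (Dcx, Sox11, Mki67, Top2a and Cd24a), which mark cells that use Ezh2, summed to 102 to 204 CPM in Bahd1-WT and 52.0 to 101 CPM in Bahd1-KO. Without the offset, 4 of the 5 were lower at an unadjusted p under 0.05, beside 12% of all genes. These 5 genes had 40.6 to 46.6% GC, and all genes under 50% GC had a median log2 fold change of -0.36. Their part in the Ezh2 value was not tested.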

How the data were processed

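RNA-seq counts per gene from 1 brain hemisphere of each of 3 Bahd1-KO and 3 Bahd1-WT mice were analysed, with genotype and replicate taken from the labels. Nothing in the labels says more of the replicates than that they are separate samples of a genotype, so p-values measure the spread between these samples. The authors deposited raw counts, unnormalized and unfiltered, in 1 table of 53801 genes. The submitters' processing notes name cutadapt 1.11, STAR 2.5.0a, featureCounts 1.4.6-p3 and GRCm38, while the supplementary methods name Tophat2 besides STAR. Libraries were made from polyadenylated RNA with a kit that marks strand.

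Here, the 23975 genes with 10 or more counts over the libraries were fitted with edgeR 4.0.16 in R 4.3.3 (TMM scaling, quasi-likelihood test, genotype only), with Benjamini-Hochberg adjustment over all of them. CPM used TMM-scaled library sizes, and FPKM the union of annotated exons (GENCODE M21). Intervals and limits from counts cover counting error only. DESeq2 1.42.0, other scalings and filters, each library left out, a replicate block and a GC content and length offset per library (splines of 5 and 3 df, fitted on 13251 expressed genes) were the alternatives. The fit was also run on simulated counts, and that run is not used as support for any result here. The labels do not say whether a replicate number is shared between the genotypes. Deviations of same-numbered samples from their group means correlated at -0.481 on average over 3 pairs, against 0.238 over the other 6. Such deviations cancel within a genotype, so the averages depend on each other and cannot exclude a shared litter or day.

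The genes, lists and tests were chosen with earlier results of these data known. Values of each library are given for genes averaging at least 1 CPM, for genes whose genotypes did not overlap at an unadjusted p under 0.05, and for the opposite-strand transcripts of such genes. The olfactory bulb markers and Tbx21 were added after their values had been seen. Promoters were from RefSeq (GRCm38.p6). One gene that the rule on names takes is not reported here and is in no count of these genes. Embryonic brains were not analysed here.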

Additional observations from a re-analysis of the deposited data

How the results depend on the processing

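Without an offset, the genes higher at an unadjusted p under 0.05 numbered 10 to 14 under the other scalings, filters and DESeq2, and 4 to 16 when 1 library was left out (4 without Bahd1-KO replicate 2, 6 without Bahd1-WT replicate 3, 16 without Bahd1-KO replicate 1). Those lower numbered 2 with upper-quartile factors and 0 to 2 with 1 library left out. The genes called as differentially expressed, 0 in the fit reported, numbered 3 with total counts, 7 without the count filter, 7 and 6 with DESeq2 without and with its prior, and 0 to 11 with 1 library left out (11 without Bahd1-KO replicate 1, 0 without any other). Over all genes, 2 calls became 2007 with total counts, 2770 without the filter, 2761 and 2522 with DESeq2, and 0 to 3988 with 1 library left out (3988 without Bahd1-KO replicate 1, at most 4 without any other). The genes with an adjusted p under 0.1, 8 in the fit reported, numbered 0 to 16 with 1 library left out (16 without Bahd1-KO replicate 1, 1 without Bahd1-KO replicate 2, 0 without any other), and the median log2 fold change was 0.13 to 0.38, lowest without Bahd1-KO replicate 2. The cause of these shifts was not tested.

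The replicate block, whose numbers the labels do not link between genotypes, gave 8 genes higher and 0 lower at an unadjusted p under 0.05, 0 with an adjusted p under 0.1, and 7 calls over all genes. The GC content and length offset gave 4 higher, 12 lower, 4 with an adjusted p under 0.1, a median of -0.096 and 4 calls over all genes. Block and offset together gave 3 higher, 8 lower, 0 with an adjusted p under 0.1, a median of -0.064 and 10 calls over all genes. With the offset and 1 library left out, an alternative chosen after seeing the data, there were 1 to 8 higher, 5 to 11 lower, 0 to 5 called, 0 to 15 with an adjusted p under 0.1 (0 without any library but Bahd1-KO replicate 1), and 1 to 1174 calls over all genes, the highest of each without Bahd1-KO replicate 1. The median was then -0.19, -0.14 and -0.083 without Bahd1-KO replicates 1, 2 and 3, and 0.027, -0.24 and -0.22 without Bahd1-WT replicates 1, 2 and 3.

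Of the genes given library by library, 16 took the opposite sign with the offset. Their log2 fold changes with the offset, and with block and offset together, were Dlx2 -0.54 and -0.62, Dlx5 -0.16 and -0.24, Gata2 -0.017 and -0.013, Irx2 -0.53 and -0.51, Irx3 -1.09 and -1.04, Irx5 -1.08 and -1.09, Lhx2 -0.44 and -0.46, Lhx6 -0.45 and -0.46, Lhx9 0.24 and 0.24, Pax2 -0.11 and -0.060, Pax6 0.084 and 0.075, Pax7 -0.31 and -0.30, Six4 0.29 and 0.28, Six5 -0.36 and -0.35, Tbx1 -0.68 and -0.67 and Tbx15 0.011 and 0.026. Total counts turned Dlx1 (0.0057) and Lhx1 (0.030), upper-quartile factors turned Lhx8 (-0.085), Pax3 (-0.11) and Pax5 (-0.11), and the replicate block turned Pax5 (-0.014). With 1 library left out, the signs of 9 genes turned at least once, over ranges of Dlx1 -0.55 to 0.37, Dlx5 -0.083 to 0.92, Dlx6 -0.59 to 0.076, Irx3 -0.029 to 0.63, Lhx1 -0.12 to 0.11, Lhx8 -0.12 to 0.27, Pax3 -0.10 to 0.20, Pax5 -0.27 to 0.26 and Pax6 -0.19 to 0.014. Depth limits what could be detected for genes near the limit of 3 counts, which is 0.0315 to 0.0690 CPM.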

Other observations

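Some T-box genes have names outside the Tbx series, and 4 of them were looked up after the other values had been seen. Eomes followed the order of the olfactory bulb markers. Tbr1, a factor of deep cortical and other glutamatergic neurons, was at 67.1, 80.6 and 102 CPM in Bahd1-WT and 89.2, 70.7 and 73.1 CPM in Bahd1-KO, with overlapping genotypes (edgeR log2 fold change -0.10, unadjusted p = 0.619). Mga, which carries a T-box and belongs to a variant PRC1 complex, was at 134, 134 and 114 CPM in Bahd1-WT and 85.7, 57.2 and 89.8 CPM in Bahd1-KO (edgeR log2 fold change -0.72, unadjusted p = 0.00607, adjusted p = 0.0664). All Bahd1-KO libraries lay below all Bahd1-WT libraries, as they did in 19.3% of all genes. Its GC content was 42.2%, and all genes under 50% GC had a median log2 fold change of -0.36. A value with the offset is not given for Mga. T (Brachyury), which specifies mesoderm, was at 0.0919 CPM or less in every library.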
